A study of Mus musculus with 54 samples.

Results

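The 44 genes described here are the glutathione transferases, UDP-glucuronosyltransferases and sulfotransferases on the array. They were taken as every probe set annotated with 1 gene symbol that starts with Gsta, Gstk, Gstm, Gstp, Gsto, Gstt, Gstz, Mgst, Ugt1, Ugt2, Ugt3 or Sult followed by only digits or lower-case letters. This gave 45 probe sets for 44 of the 18759 genes in the table, namely 20 glutathione transferases (membrane-bound Mgst genes included), 9 UDP-glucuronosyltransferases and 15 sulfotransferases. Another 15 probe sets that carry a family name beside other symbols, such as those for the Ugt1a genes, were left out. The rule used names and no measured value.

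These enzymes carry out the conjugation step of detoxification. Glutathione transferases join glutathione to reactive electrophiles and peroxidation products, UDP-glucuronosyltransferases attach glucuronic acid to steroids, bile acids, bilirubin and drugs, and sulfotransferases move a sulfate group from the donor PAPS onto phenols, steroids and catecholamines. Liver and kidney are the organs best known for these reactions, and the conjugates leave in bile or urine. Many glutathione transferase genes are known targets of the transcription factor NRF2.

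RNA was measured on 54 Affymetrix arrays from C57BL6 mice aged 14 weeks. Swim mice trained for 3 weeks with 2 sessions of 90 min per day and 4 h of rest between them, after 9 days in which sessions lengthened by 10 min steps, and control mice had no such training. Swim and control arrays numbered 4 and 3 in liver, 3 and 4 in muscle, and 4 and 4 in each of kidney, visceral fat, subcutaneous fat, spleen and brain. Training began at 11 to 12 weeks of age. No sex, batch or time of tissue collection is in the labels, nor whether tissues came from the same mice or which mice the replicates were, so p-values measure the spread between these arrays.

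Values are log2(signal + 16), normalized so that arrays of a tissue share one distribution. A difference of 1 log2 unit is close to a doubling for a bright gene and understates the change of a dim one. Within each tissue the dimmest 40% of probe sets were not tested, and "passed" means an adjusted p under 0.05 over all genes of that tissue. Of the 44 genes, 37 were bright enough to be tested in at least 1 tissue and 13 in all 7. The 7 that were too dim in every tissue were Gstt4, Sult1c1, Sult2a6, Sult3a1, Sult3a2, Sult6b1 and Sult6b2. Array medians lay between 45.92 and 118.65 intensity units, and the number of arrays limits the precision. Tissue markers (Alb, Umod, Adipoq, Snap25 and Ckm) were highest in their own tissues.

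Some arrays carried transcripts of another tissue. In subcutaneous fat, swim array 22 had a mean of 12.00 over the kidney tubule markers, against at most 5.20 in the other subcutaneous arrays. Spleen control 26 had a mean of 10.50 over 7 hepatocyte markers, the highest among spleen arrays. Liver control 52 had 9.17 and brain control 36 had 8.26 over 8 skeletal muscle markers, and subcutaneous swim 23 had 10.52. Kidney swim 15 had 9.45 over the hepatocyte markers. In subcutaneous fat the mean of these markers ran from 6.94 to 10.34 in swim arrays, highest in swim 22. It ran from 7.27 to 9.73 in the controls of that tissue. Without liver control 52, 6 members passed in liver in place of 5, and without brain control 36 the count in brain stayed at 0. The other counts without these arrays are given beside their results.

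In control mice, 23 of the 37 measured genes had their highest mean in liver, 7 in kidney, 5 in visceral fat and 2 in brain. Means of this section are of control arrays normalized together over all 54 arrays, with SD, and each probe set is set only against itself. The highest tissue stood above the next one past the threshold for 29 of the 37, against 60.6% of all genes tested. For liver alone, 17 of the 37 were highest there and passed, against 6.82% of all genes, and for kidney 6, against 6.91%. Visceral fat had 4, against 6.2%, and brain 2, against 15.4% of all genes. Subcutaneous fat, spleen and muscle had 0, against 0.449%, 12.8% and 12%. By over 2 log2 units, 9 members were highest in liver (2.04% of all genes), 2 in kidney (1.91%), 1 in visceral fat (0.161%) and 1 in brain (6.47%). None were so in subcutaneous fat (0.0536%), spleen (0.958%) or muscle (1.82%). Fewer cells of a type and less RNA per cell cannot be told apart in such bulk samples.

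**Figure D1:**
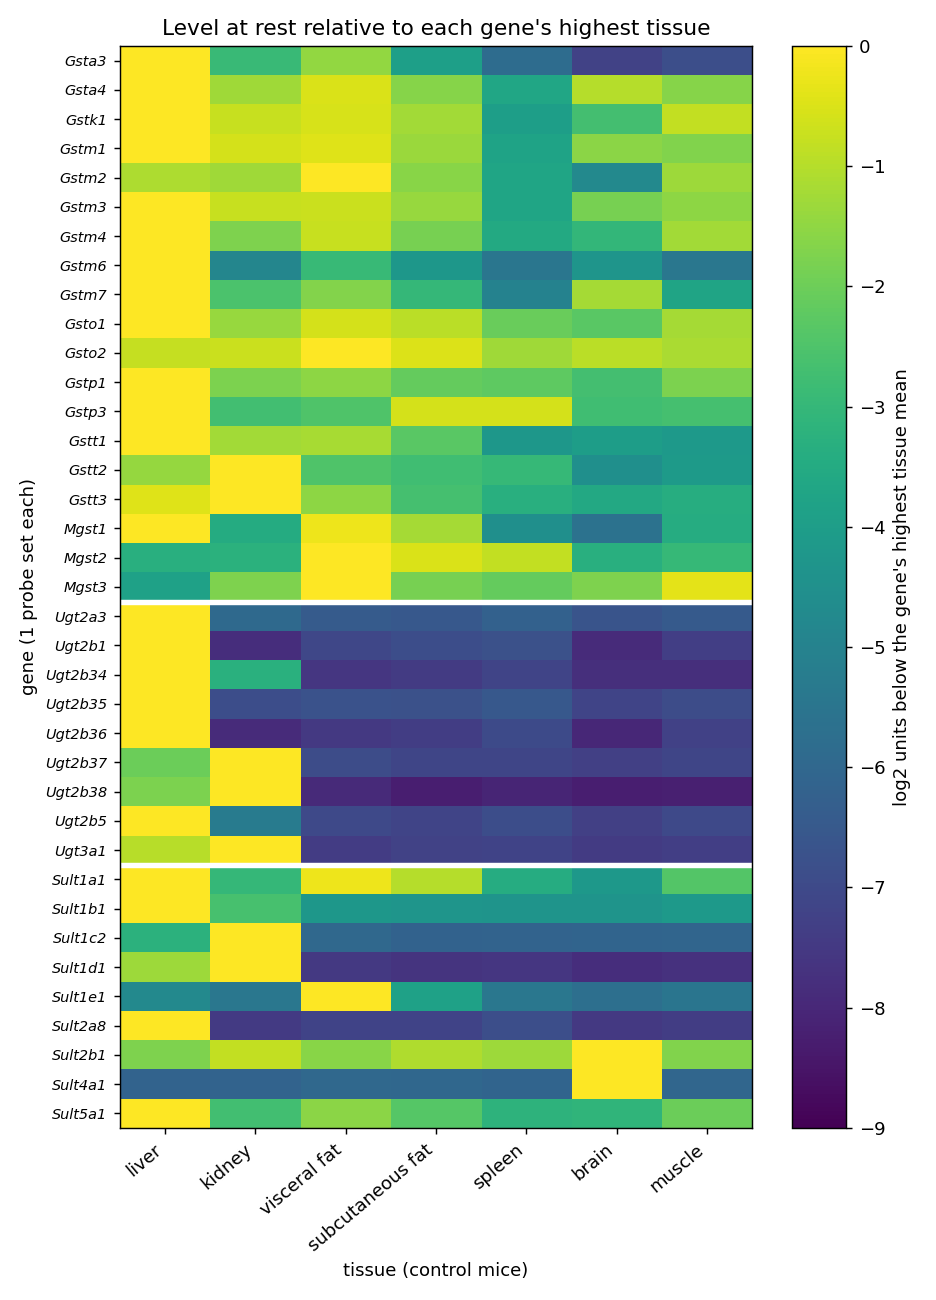
Level of each measured gene in control mice of the 7 tissues, as log2 units below the mean of that gene's highest tissue (colour, 0 at the highest). Glutathione transferases stand above the upper white line, UDP-glucuronosyltransferases between the lines and sulfotransferases below them, and the glucuronosyltransferases lie far below their highest level outside liver and kidney.

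UDP-glucuronosyltransferases had the sharpest tissue pattern at rest. All 9 were highest in liver (6) or kidney (3), and all 9 passed against the next tissue. Ugt2b36 (probe set 10531051) had 12.76 ± 0.04 in control liver (n = 3), against 4.87 ± 0.13 in control kidney (n = 4). Ugt2b1 (10531041) had 12.08 ± 0.05 in liver, against 4.26 ± 0.12 in kidney. Ugt2a3, Ugt2b5, Ugt2b34 and Ugt2b35 had means between 11.36 and 12.54 in liver and between 4.57 and 9.25 in kidney. These 6 genes all stood over 2 log2 units above the next tissue. For Ugt2b1, Ugt2b35 and Ugt2b36 the next tissue was spleen, where spleen control 26 stood apart, with Ugt2b36 at 8.45 in that array and at most 5.18 in the other spleen controls.

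The other 3 members of the family ran the other way, with kidney above liver. Ugt2b37 (10531061) had 12.78 ± 0.21 in kidney, 10.77 ± 0.96 in liver and at most 5.87 in the other 5 tissues. Ugt2b38 (10531073) had 13.70 ± 0.03 in kidney, 11.93 ± 0.99 in liver and at most 5.76 elsewhere. Ugt3a1 (10423005), whose human counterpart uses N-acetylglucosamine in place of glucuronic acid, had 11.83 ± 0.03 in kidney and 10.86 ± 0.11 in liver. Kidney exceeded liver by 2.02 ± 0.27 for Ugt2b37, 1.77 ± 0.26 for Ugt2b38 and 0.97 ± 0.22 log2 units for Ugt3a1 (SE, adjusted p at most 0.000705). The SD of about 1 log2 unit for Ugt2b37 and Ugt2b38 among the 3 control livers compares with 0.04 to 0.17 for the other family members there.

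Ugt2b37 and Ugt2b38 are closely similar in the 250 bases before their start sites, which are shown. Both come from RefSeq on GRCm38.p6, chr5:87254789-87255038 for Ugt2b37 and chr5:87424204-87424453 for Ugt2b38, minus strand, written 5′ to 3′. Capitals mark bases that differ between the 2 in their alignment.
Ugt2b37: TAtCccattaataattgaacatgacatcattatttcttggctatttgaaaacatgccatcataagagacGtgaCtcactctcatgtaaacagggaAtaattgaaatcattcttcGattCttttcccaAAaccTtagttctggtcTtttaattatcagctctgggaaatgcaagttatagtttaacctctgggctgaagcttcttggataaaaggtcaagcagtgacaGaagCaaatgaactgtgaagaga
Ugt2b38: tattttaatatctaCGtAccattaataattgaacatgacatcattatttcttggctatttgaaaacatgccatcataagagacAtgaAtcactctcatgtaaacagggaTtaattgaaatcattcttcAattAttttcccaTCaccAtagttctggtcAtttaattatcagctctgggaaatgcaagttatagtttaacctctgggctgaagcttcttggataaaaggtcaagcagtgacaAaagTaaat
Over 236 aligned bases, 222 were identical and 14 differed, with 0 gaps, which is 94.1% identity. The same window of Ugt2b5 was 85.1% identical to that of Ugt2b37 and 88.8% to that of Ugt2b38, and that of Ugt2b36 was 60.8 to 64.7% identical to the other 3. These windows lie before the transcripts that the arrays read, and no transcript sequence was compared. Whether the probes of Ugt2b37 and Ugt2b38 share sequence was not tested, so the split of signal between them is uncertain.

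Among the glutathione transferases, 13 of 19 measured genes were highest in liver, 4 in visceral fat and 2 in kidney. Gstm6 (10501208), a mu-class enzyme, stood furthest above the next tissue among the probe sets used at rest, with 10.47 ± 0.10 in liver and 7.53 ± 0.21 in visceral fat, a difference of 2.94 ± 0.23 (SE, adjusted p = 9.12e-11). Gsta3 (10345065), an alpha-class enzyme, had 12.86 ± 0.02 in liver, 11.40 ± 0.17 in visceral fat and 9.97 ± 0.12 in kidney. Gstp1 (10464583), a pi-class enzyme, had 12.27 ± 0.05 in liver and between 9.58 and 10.73 in the other 6 tissues. Visceral fat was the next tissue after liver for all of the 13 but Gstm7 (brain) and Gstp3 (spleen). For Gsta4, Gstk1, Gstm1, Gstp3 and Mgst1 liver and the next tissue did not differ past the threshold. Mgst1 (10542470), a membrane-bound enzyme of the endoplasmic reticulum and outer mitochondrial membrane, had 12.36 ± 0.08 in liver and 12.14 ± 0.14 in visceral fat.

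The theta class was divided between organs. Gstt2 (10370013) had 10.47 ± 0.13 in kidney and 9.03 ± 0.32 in liver, with kidney higher by 1.44 ± 0.14 (adjusted p = 4.8e-09). Gstt3 (10369993) had 9.32 ± 0.11 in kidney and 8.89 ± 0.09 in liver, a difference of 0.43 ± 0.23 that did not pass (adjusted p = 0.125). Gstt1 (10370000) had 10.96 ± 0.24 in liver, against 9.70 ± 0.08 in kidney. Visceral fat led for Gstm2, Gsto2, Mgst2 and Mgst3. Mgst2 (10491952), which can make leukotriene C4, had 7.76 ± 0.21 in visceral fat, 7.25 ± 0.27 in subcutaneous fat and 6.92 ± 0.09 in spleen, and at most 4.78 in the other 4 tissues.

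Gstm3 was read by a pair of probe sets that disagree. Probe set 10501218 had 13.11 ± 0.25 in control liver and at most 8.17 in other tissues, whereas probe set 10362511 had 11.01 ± 0.10 in liver and between 7.30 and 10.28 elsewhere. The swim comparison in liver uses the first and all other values of Gstm3 use the second, by the rule of the brighter probe set.

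Sulfotransferases were spread over 4 tissues. In liver, Sult2a8 (10560131), which sulfates bile acids, had 11.95 ± 0.13 and at most 5.12 in any other tissue, and Sult1b1 (10531087), a thyroid hormone sulfotransferase, had 8.54 ± 0.41, against 5.92 ± 0.11 in kidney. Kidney led for Sult1c2 (10451818), with 10.75 ± 0.16, against 7.54 ± 0.26 in liver, and for Sult1d1 (10531100), which acts on catecholamines, with 12.29 ± 0.08, against 10.98 ± 0.24. Sult1e1 (10531111), the oestrogen sulfotransferase, had 9.92 ± 0.58 in visceral fat, 6.09 ± 1.16 in subcutaneous fat and at most 5.17 elsewhere. Brain held Sult4a1 (10431113) at 10.90 ± 0.08, and the other 6 tissues at most 4.92. Sult1a1 (10568001), the phenol sulfotransferase, had 10.18 ± 0.10 in liver and 9.94 ± 0.37 in visceral fat, which did not differ past the threshold (adjusted p = 0.392).

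Set directly against kidney, control liver had 23 members higher and 8 lower, with 6 not called. Over all genes, 24.3% were higher and 27.7% lower in liver. The 8 lower in liver were Gstt2, Mgst3, Sult1c2, Sult1d1, Sult2b1, Ugt2b37, Ugt2b38 and Ugt3a1. The largest excess over kidney was 7.88 ± 0.60 log2 units for Ugt2b36. Without spleen control 26, 30 members passed against their next tissue, and the liver against kidney count stayed at 31.

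Motifs of known regulators were counted in the 250 bases before each start site. RefSeq had windows for 41 of the 44 genes (52 windows). The antioxidant response element core bound by NRF2, TGACNNNGC on either strand, was in 3 of 52 member windows (5.77%), against 10.2% of all 32851 windows. These 3 belonged to Gsta3, Gstm7 and Mgst1. Gstm7 also had a window further upstream (chr3:107931818-107932067, minus strand) without the core. The core of Gstm7 lies downstream of the start site of that window. By family they were 3 of the 26 glutathione transferase windows (11.5%), and the windows of the other families had 0. The core of the site of the liver and kidney factor HNF1, GTTAAT on either strand, was in 7 member windows (13.5%), against 6.43% of all windows, in Gsta3, Sult1a1, Sult1d1, Sult2a6, Sult3a2, Ugt2a3 and Ugt3a1. It was in 3.85% of the 26 glutathione transferase windows, 22.2% of the 9 glucuronosyltransferase windows and 23.5% of the 17 sulfotransferase windows. A D-box, TTATGTAA or TTACGTAA, the element read by the clock output factors DBP, TEF and HLF, was in 1 member window (1.92%), that of Ugt2b1, against 0.931% of all. Matches of different motifs overlapped in 0 member windows. The Gsta3 window (chr1:21240335-21240584, plus strand) is shown because it holds the antioxidant core in a gene that rose in liver. The other genes with the core, Gstm7 and Mgst1, did not pass in liver (differences -0.01 and 0.03). A link between the core and the swim differences was not tested. The Ugt2b1 window (chr5:86926504-86926753, minus strand) is shown because it holds the D-box. Capitals mark the antioxidant core in the first and the D-box, read on the opposite strand, in the second.
Gsta3: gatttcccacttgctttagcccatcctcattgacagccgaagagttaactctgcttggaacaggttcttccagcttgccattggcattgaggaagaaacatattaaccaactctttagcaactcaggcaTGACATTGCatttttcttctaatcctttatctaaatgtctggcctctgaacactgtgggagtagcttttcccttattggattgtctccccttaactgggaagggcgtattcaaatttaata
Ugt2b1: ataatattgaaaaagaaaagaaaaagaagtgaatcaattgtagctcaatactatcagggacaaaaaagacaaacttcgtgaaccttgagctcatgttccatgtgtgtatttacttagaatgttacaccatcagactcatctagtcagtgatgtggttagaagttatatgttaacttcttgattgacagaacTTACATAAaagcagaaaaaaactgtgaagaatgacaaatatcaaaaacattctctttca

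In liver, swimming went with higher levels of 4 members and a lower level of 1. Of the 32 members tested 5 passed, and over all genes 4% passed, 1.84% higher and 2.16% lower. With the values as deposited, 4 were higher and 2 lower. The members that rose were 2 glutathione transferases (Gstt3 and Gsta3) and 2 sulfotransferases (Sult1a1 and Sult1c2), and the one that fell was Ugt2b37. The median difference over the 32 members was 0.04, against 0.00 over all genes of the tissue.

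Ugt2b37 fell in liver by the largest amount of any member in any tissue that passed. It had 8.03, 8.04, 7.87 and 8.26 in the 4 swim livers, against 12.04, 11.22 and 9.90 in the 3 control livers. All swim livers lay below all control livers. It averaged 8.05 ± 0.16 in swim livers and 11.05 ± 1.08 in control livers (SD, n = 4 and 3), a ratio of swim to control of 0.125 (adjusted p = 0.0128). In deposited intensity, the 4 swim livers had 261, 232, 214 and 282 units, against 4920, 2204 and 817 in control livers. The controls were themselves spread over more than 2 log2 units. In kidney, where its level at rest was higher, Ugt2b37 had 13.03, 12.96, 12.98 and 13.11 in swim mice, against 13.20, 12.89, 12.74 and 12.74 in control mice, and the groups overlapped (difference 0.12 ± 0.10, adjusted p = 0.37).

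Ugt2b38, the gene with the similar upstream window, behaved unlike Ugt2b37 in the same livers. It had 13.66, 8.28, 8.30 and 13.58 in swim livers 53, 54, 55 and 56, against 12.23, 11.35 and 13.53 in control livers 49, 50 and 52. Swim livers 54 and 55 were low for both genes, and swim livers 53 and 56 were low for Ugt2b37 alone. Among the controls, array 52 was lowest for Ugt2b37 and highest for Ugt2b38. The groups overlapped and the difference of -1.42 ± 1.49 did not pass (adjusted p = 0.637). In kidney Ugt2b38 was among the brightest probe sets of every array, and 7 of the 8 arrays shared the value 13.84, so a change at that level could hardly be seen.

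The other 7 glucuronosyltransferases did not pass in liver. Ugt2b35 had 11.51, 11.71, 11.37 and 11.60 in swim livers, against 12.01, 11.63 and 11.80 in control livers (difference -0.27 ± 0.11, adjusted p = 0.211). Ugt2b1, the gene with the D-box, averaged 12.53 ± 0.10 in swim livers and 12.55 ± 0.06 in control livers (SD, n = 4 and 3). Ugt2a3, Ugt2b34, Ugt2b36, Ugt2b5 and Ugt3a1 had differences between -0.12 and 0.08.

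Both sulfotransferases that rose in liver did so without overlap. Sult1a1 had 10.97, 11.07, 11.10 and 11.02 in swim livers, against 10.28, 10.39 and 10.52 in control livers, a difference of 0.64 ± 0.07 (adjusted p = 0.00758). Sult1c2, of which kidney is the main site at rest, had 8.10, 8.24, 8.14 and 7.97 in swim livers, against 7.18, 7.15 and 7.69 in control livers (0.77 ± 0.14, adjusted p = 0.0239). Leaving out control 49 or 50 or swim 53, 54 or 55 raised the adjusted p of Sult1c2 above 0.05, to at most 0.0862. Sult1b1, Sult1d1, Sult2a8 and Sult5a1 did not pass, with differences between -0.26 and 0.27. Sult1e1 was too dim in liver to be tested.

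Among glutathione transferases in liver, Gstt3 had 9.68, 9.51, 9.98 and 9.73 in swim mice, against 9.01, 8.87 and 8.80 in control mice. The difference was 0.83 ± 0.11 (adjusted p = 0.0116), and all swim arrays lay above all control arrays. Gsta3, whose promoter window is shown above, had 13.72, 13.72, 13.62 and 13.67, against 13.36, 13.41 and 13.37 in control mice (0.30 ± 0.06, adjusted p = 0.0312). Leaving out any 1 of the 7 liver arrays raised the adjusted p of Gsta3 above 0.05, to at most 0.108. Gsta3 did not pass with the values as deposited or with arrays centred on their medians either. In 1 fit of all 54 arrays Gsta3, Sult1a1 and Sult1c2 did not pass, whereas Gstt3 and Ugt2b37 did.

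Gstt2 and Mgst3 came close without passing. Gstt2 had 9.76, 9.69, 10.11 and 9.71 in swim livers, against 8.67, 9.08 and 9.41 in control livers (0.77 ± 0.17, adjusted p = 0.053). Mgst3 had 6.55, 6.72, 6.80 and 6.35, against 5.91, 6.24 and 6.12 in control livers (0.51 ± 0.12, adjusted p = 0.0591). The swim and control livers did not overlap for either gene. The other 13 tested transferases of this family had differences between -0.24 (Gstp1) and 0.43 (Gstm2).

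**Figure D2:**
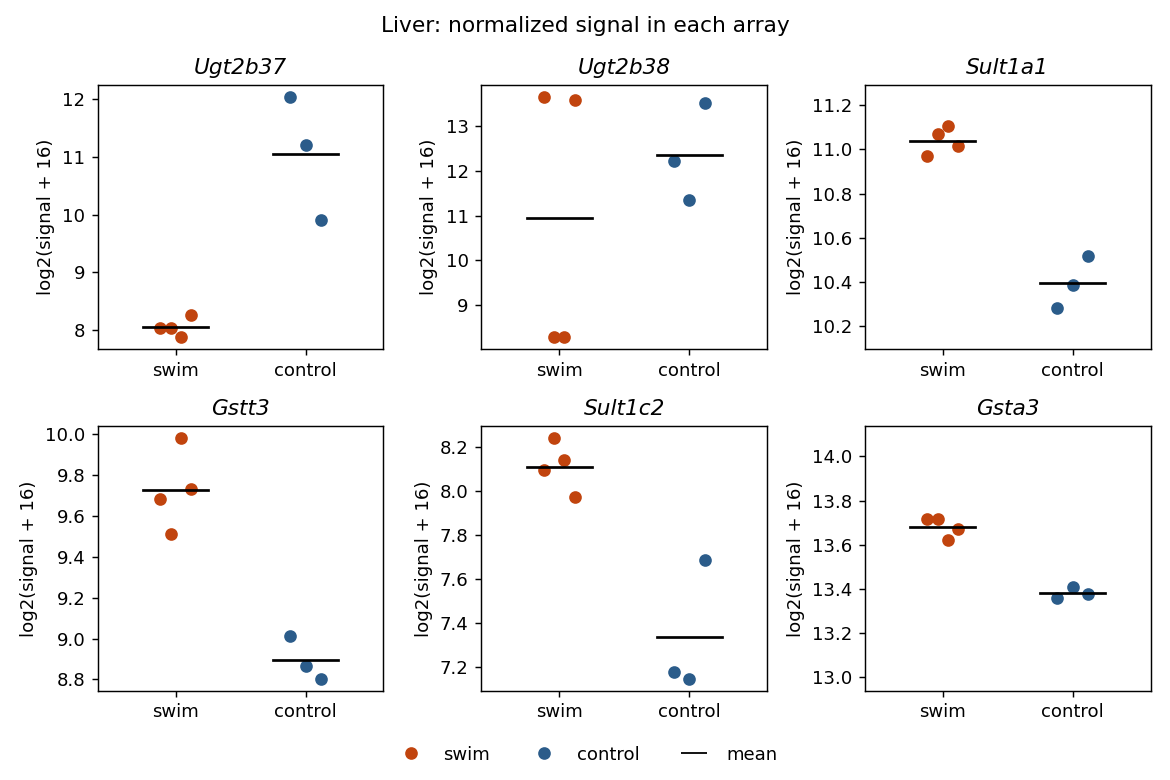
Normalized signal, log2(signal + 16), of 6 members in each liver array, with 4 swim arrays (left of each panel) and 3 control arrays (right), and a line at each mean. Ugt2b37 is near 8 in all 4 swim livers and between 9.90 and 12.04 in control livers, whereas Ugt2b38 splits the swim livers into a pair near 13.6 and a pair near 8.3.

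Other gene groups also moved in these livers. Macrophage markers were lower, with 7 of 7 tested passing and the mean of 8 genes between 7.45 and 7.94 in swim livers, against 8.31 to 8.46 in control livers. The mean of 8 male-biased liver genes lay between 11.94 and 12.40 in swim livers, against 12.62 to 12.67 in control livers, with 1 of 8 passing. That of 5 female-biased genes lay between 6.43 and 8.19, against 5.76 to 5.89 in control livers, with 2 of 4 tested passing as higher and swim 55 highest. Hepatocyte markers overlapped (13.64 to 13.73 in swim livers and 13.62 to 13.74 in control livers). Of 14 circadian clock genes 7 were higher and 4 lower in swim livers, led by Ciart (3.29 ± 0.18) and Arntl (-2.37 ± 0.15). The part of these shifts in the results for the conjugating enzymes was not tested.

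In kidney 5 glutathione transferases fell and 1 sulfotransferase rose. Of 24 members tested, 5 fell and 1 rose, and over all genes 24.4% passed, 13.6% lower and 10.8% higher. The share of members that passed was 25%, close to the share of all genes. All 5 that fell were glutathione transferases, out of 15 of that family tested, and the median of the 15 was -0.02. They were 3 of the mu class, 1 of the pi class and 1 of the theta class. Gstm3 was read here by probe set 10362511, 1 of the pair that disagree at rest. Whether that probe set shares signal with other mu-class genes was not tested, so the 3 mu-class falls may not be separate.

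Gstp1 fell most in kidney, with 10.29, 10.06, 10.16 and 10.10 in swim mice, against 10.71, 10.68, 10.48 and 10.49 in control mice (-0.44 ± 0.07, adjusted p = 0.00259). Gstt3 had 9.06, 8.89, 9.00 and 8.97, against 9.43, 9.28, 9.37 and 9.54 in control mice (-0.42 ± 0.06, adjusted p = 0.00158). Each of these genes was lower in every swim kidney than in any control kidney. The mu-class falls were smaller. Gstm1 (10501229) had 10.86, 10.97, 10.95 and 10.94, against 11.13, 11.07, 11.12 and 11.20 in control mice (-0.20 ± 0.05, adjusted p = 0.0132). Gstm3 had 10.03, 10.04, 10.12 and 10.21, against 10.36, 10.34, 10.27 and 10.33 in control mice (-0.23 ± 0.05, adjusted p = 0.0116). Gstm4 (10501235) had 8.64, 8.47, 8.63 and 8.66, against 8.88, 8.75, 8.80 and 8.88 in control mice (-0.23 ± 0.06, adjusted p = 0.016). For all 3 mu-class genes every swim array lay below every control array, at ratios of swim to control of 0.853 to 0.870. For Gstm3 this holds for probe set 10362511. Its dimmer probe set 10501218, not tested in kidney, had 7.83, 7.39, 7.94 and 7.79, against 7.97, 7.87, 7.97 and 8.01. There the groups overlapped (difference -0.22).

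Sult1c2, the kidney-rich sulfotransferase, was the one member that rose there. It had 11.10, 10.97, 11.13 and 11.13 in swim mice, against 10.66, 10.75, 10.90 and 11.03 in control mice (0.25 ± 0.08, adjusted p = 0.0435). The groups overlapped, since control 12 stood above swim 14. The adjusted p went above 0.05, to at most 0.104, in 6 of the 8 fits that leave out 1 array, all but those without control 12 and without swim 14. The 5 glucuronosyltransferases tested in kidney did not pass. Ugt3a1 had 11.99, 11.97, 11.96 and 11.97, against 11.84, 11.92, 11.88 and 11.88 in control mice (0.10 ± 0.04, adjusted p = 0.108). Gstm2, Gstm7, Gsto1, Gstt2, Sult1b1 and Sult1d1 had differences between -0.10 and -0.02, and none of them passed.

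**Figure D3:**
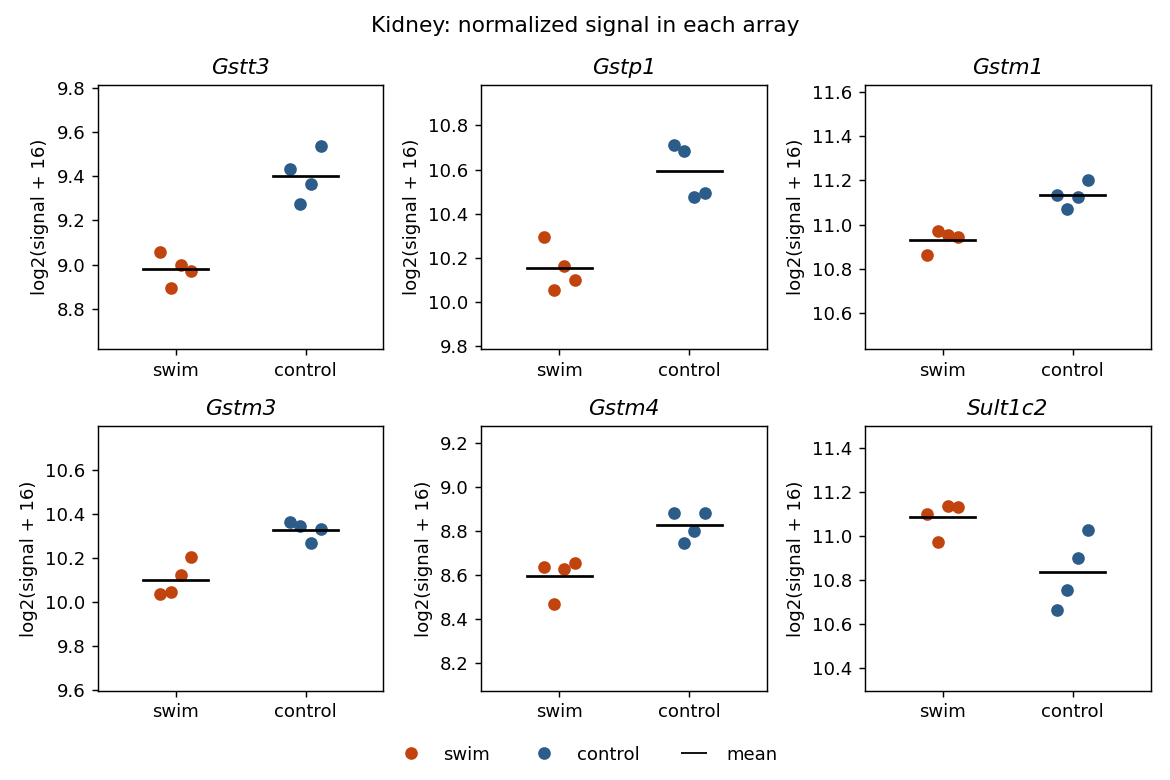
Normalized signal, log2(signal + 16), of the 6 members that passed in kidney, with 4 swim arrays (left of each panel) and 4 control arrays (right), and a line at each mean. The 5 glutathione transferases lie lower in every swim array than in any control array, and Sult1c2 overlaps between the groups. Gstm3 is its brighter probe set in kidney, 10362511.

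The kidney falls came with lower macrophage markers, of which 7 of 8 passed as lower. Their mean lay between 6.73 and 6.90 in swim kidneys, against 7.29 to 7.46 in control kidneys. Of 8 kidney tubule markers 1 was higher and 2 lower, with means between 12.70 and 12.76 in swim kidneys, against 12.74 to 12.81 in control kidneys. Hepatocyte markers lay between 8.43 and 9.45, against 8.30 to 8.44 in control kidneys, with 1 of 6 passing as higher and swim 15 highest. Without swim 15 the 5 falls passed and Sult1c2 did not (adjusted p = 0.0988). Of 13 clock genes tested in kidney, 9 were higher and 3 lower. Their part in the results for the members was not tested. With the values as deposited, 0 members passed in kidney, where 42 of all genes did. With arrays centred on their medians 6 were lower and 0 higher, and in 1 fit of all 54 arrays Gstp1 alone passed.

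Gstt3 was the one member whose swimming effect differed between liver and kidney past the threshold. The liver effect minus the kidney effect was 1.26 ± 0.29 log2 units (adjusted p = 0.0165, 14 group means fitted to all 54 arrays). Of 32 members tested 1 passed, against 0.781% of all genes. Gstt2 (0.87 ± 0.25, adjusted p = 0.0861) and Ugt2b37 (-3.13 ± 0.92, adjusted p = 0.107) did not pass in that fit, which shares 1 estimate of spread over all tissues. In a fit of the 15 liver and kidney arrays alone, chosen after seeing the data, 5 members passed. They were Gstt3 (adjusted p = 0.000221), Ugt2b37 (0.00114), Gstt2 (0.0147), Sult5a1 (0.0314) and Sult1a1 (0.0404). Gstt3 did not pass with the values as deposited or with normalization over all 54 arrays together.

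**Figure D4:**
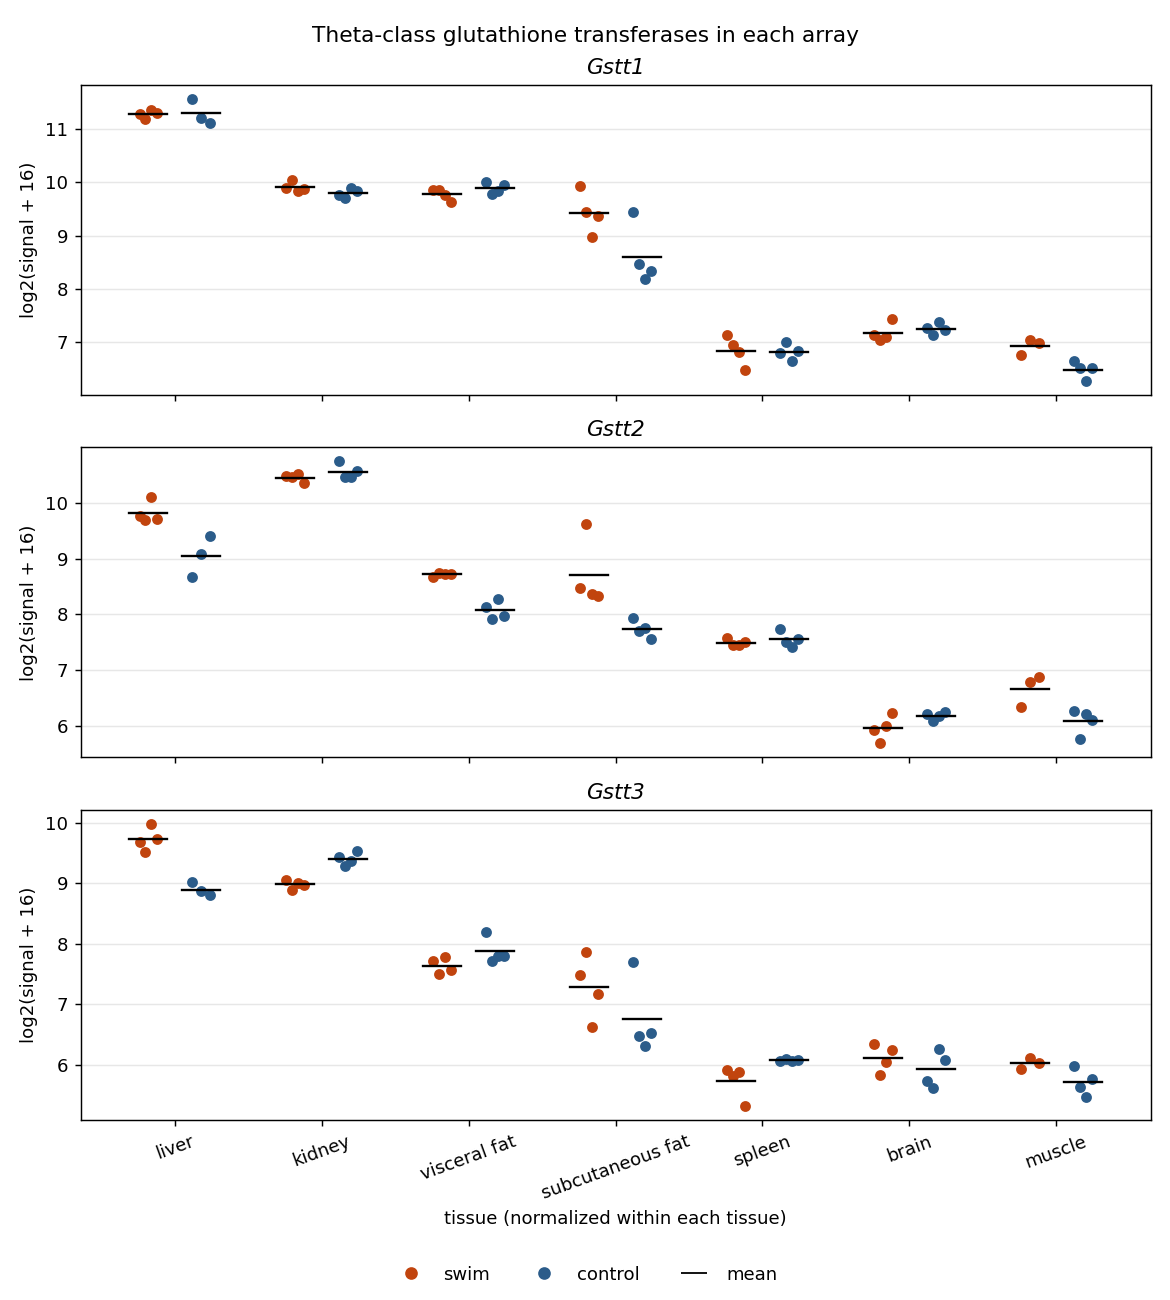
Normalized signal, log2(signal + 16), of the theta-class genes Gstt1, Gstt2 and Gstt3 in each array of the 7 tissues, with swim arrays left of control arrays and a line at each mean. Values are normalized within each tissue, so only swim and control arrays of one tissue are to be compared, and Gstt3 lies above control in swim liver and below control in swim kidney.

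In visceral fat 2 members rose and 2 fell. Of 22 tested, 4 passed (18.2%), and over all genes 23.4% passed, 11.3% higher and 12.1% lower. Gstt2 rose, with 8.67, 8.74, 8.73 and 8.73 in swim mice, against 8.14, 7.92, 8.28 and 7.97 in control mice (0.64 ± 0.09, adjusted p = 0.00167). Mgst2 had 8.18, 8.32, 8.69 and 8.26, against 7.63, 8.11, 7.88 and 7.67 in control mice (0.54 ± 0.14, adjusted p = 0.02). Both genes had every swim array above every control array.

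The mu-class genes Gstm6 and Gstm4 fell in visceral fat. Gstm6 had 7.28, 7.12, 7.12 and 7.08, against 7.84, 7.47, 7.35 and 7.67 in control mice (-0.43 ± 0.11, adjusted p = 0.02). Gstm4 had 9.69, 9.56, 9.58 and 9.44, against 9.86, 9.83, 9.80 and 9.88 in control mice (-0.28 ± 0.07, adjusted p = 0.0247). Without control 4 the calls of Gstm4, Gstm6 and Mgst2 were lost, and without swim 7 those of Gstm4 and Gstm6. Gstm4 also lost its call without control 1 or swim 6 or 8. The adjusted p in these fits was at most 0.0659. With the values as deposited, none of the 4 passed. The oestrogen sulfotransferase Sult1e1, highest here at rest, had 8.91, 9.30, 9.33 and 10.04 in swim mice, against 10.67, 10.41, 9.41 and 9.69 in control mice, and overlapped (-0.65 ± 0.30, adjusted p = 0.141).

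With arrays centred on their medians in place of quantile normalization, 15 members were lower and 2 higher in visceral fat, out of 21 tested. In that scaling 45.4% of all genes passed, and the median of all genes was -0.22. Gstm7 had 9.22, 8.96, 8.98 and 8.82 in swim mice, against 10.38, 9.37, 9.26 and 9.55 in control mice, and missed the threshold (-0.64 ± 0.22, adjusted p = 0.0556). In visceral fat 7 macrophage markers were tested, 2 were higher and 0 lower, and the means of the list overlapped between the groups. Adipocyte markers lay between 12.63 and 12.71 in swim mice, against 12.70 to 12.97 in control mice, with 1 of 7 passing as lower. Of 14 clock genes, 8 were higher and 4 lower. Their part in the results was not tested.

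In muscle Gstm1, Gstm2, Gstk1 and Gstt1 rose and Gstp1 fell. Of 16 members tested 4 rose and 1 fell (31.2%), and over all genes 11.4% passed, 5.68% in each direction. The median difference of the 16 members was 0.34, against -0.02 over all genes. Gstm2 (10501222) had 9.30, 9.36 and 9.58 in the 3 swim muscles, against 8.65, 8.59, 8.66 and 8.90 in the 4 control muscles (0.71 ± 0.10, adjusted p = 0.0112). Gstm1 had 10.45, 10.41 and 10.54, against 10.13, 9.85, 9.91 and 9.93 in control muscles (0.51 ± 0.08, adjusted p = 0.0141). Both mu-class genes had all swim arrays above all control arrays.

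Gstk1 (10537712), the kappa-class enzyme of mitochondria and peroxisomes, had 11.15, 11.33 and 11.33 in swim muscles, against 10.76, 10.97, 10.99 and 10.97 in control muscles (0.34 ± 0.08, adjusted p = 0.037). Gstt1 had 6.75, 7.04 and 6.99, against 6.64, 6.53, 6.28 and 6.52 in control muscles (0.44 ± 0.11, adjusted p = 0.0377). Gstp1 fell, with 10.32, 10.24 and 10.11, against 10.58, 10.65, 10.40 and 10.48 in control muscles (-0.30 ± 0.08, adjusted p = 0.0496). The groups were apart for these 3 genes too.

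The muscle calls rested on few arrays and on the scaling. With the values as deposited, 1 member was higher and 0 lower (3.46% of all genes passed), and with arrays centred on their medians 2 were higher and 1 lower (7.84%). Gstm1 passed in neither, and Gstm2 not with the values as deposited. Without swim 46, 0 members passed (0.608% of all genes did), and Gstm2 (adjusted p = 0.0513) and Gstm1 (0.0543) came closest. Gstk1, Gstt1 and Gstp1 each kept their call in only 1 of the 7 fits that leave out an array, that without swim 45, and the adjusted p of Gstp1 was at most 0.132. Adipocyte markers in muscle had means between 8.42 and 9.67 in swim arrays, against 7.39 to 8.92 in control arrays, with swim 46 highest and 0 of 6 passing. Macrophage markers lay between 6.19 and 6.31, against 6.40 to 6.86 in control arrays, with 3 of 7 passing as lower. Of 14 clock genes, 7 were higher and 3 lower. Their part in the results was not tested.

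In spleen 1 of 18 members passed (5.56%), against 14% of all genes, 7.04% higher and 6.97% lower. Gstp1 had 9.50, 9.19, 9.43 and 9.12 in swim spleens, against 9.75, 10.12, 9.67 and 9.64 in control spleens (-0.49 ± 0.12, adjusted p = 0.0339). All swim spleens lay below all control spleens. The call was lost without any 1 of the controls 25, 26, 27 and 28 or of swim 30, 31 and 32 (adjusted p at most 0.0761). Gstm7 (10501199), with 5.94, 5.51, 6.10 and 5.33, against 6.24, 6.63, 6.11 and 6.16 in control spleens (-0.56 ± 0.18, adjusted p = 0.066), Gsta4 (-0.40 ± 0.13, 0.0712) and Gstm4 (-0.31 ± 0.10, 0.0731) did not pass. The median of the 18 members was -0.25, against 0.00 over all genes. Control 26, the array with hepatocyte markers, had 8.36 for Gsta3, against 6.48, 6.92 and 6.58 in controls 25, 27 and 28. It had 8.91 for Mgst1, against 7.30, 7.78 and 7.42, but for Gsto1 8.05, against 8.17, 8.16 and 8.11. The part of this array in the median was not tested. Macrophage markers were lower, with 6 of 8 passing and means between 8.50 and 9.09 in swim spleens, against 9.26 to 9.39 in control spleens, and 4 of 10 clock genes were higher. Their part in the result was not tested. With the values as deposited, 13 members were lower in spleen and 0 higher, of 18 tested. In that scaling 45.1% of all genes passed, and their median was -0.27.

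Gstp1 passed as lower in 3 tissues, kidney, spleen and muscle, more than any other member. In liver, visceral fat, subcutaneous fat and brain its differences were -0.24, -0.01, 0.16 and -0.08, none of which passed. Each of the 3 tissues with a fall of Gstp1 also had lower macrophage markers, as did liver. The mean of these markers was also lower without overlap where Gstp1 did not pass in subcutaneous fat and brain. It lay between 7.94 and 8.50 in subcutaneous swim arrays, against 8.61 to 9.73 in controls. In brain it lay between 6.67 and 7.23, against 7.26 to 7.46, and 0 of the markers passed in either tissue. The part of these markers in the falls was not tested.

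In subcutaneous fat 0 of 22 members passed, and 0% of all 11548 genes did, with limma. At an unadjusted p under 0.05 there were 5 members and 2489 genes. The 4 of smallest p were Gstt2, Mgst3, Gstt1 and Gsta3. Gstt2 had 8.47, 9.62, 8.36 and 8.33 in swim mice, against 7.93, 7.70, 7.75 and 7.57 in control mice (0.96 ± 0.29, adjusted p = 0.205). Mgst3 had 10.24, 9.11, 9.81 and 10.12, against 9.71, 8.41, 6.92 and 8.27 in control mice (1.49 ± 0.54, adjusted p = 0.212). Gstt1 had 9.92, 9.44, 8.97 and 9.36, against 9.44, 8.47, 8.18 and 8.33 in control mice (0.82 ± 0.31, adjusted p = 0.216). Gsta3 had 10.12, 10.00, 9.83 and 9.79, against 10.06, 9.02, 7.67 and 8.75 in control mice (1.06 ± 0.44, adjusted p = 0.222). Control 17 stood near the swim arrays for the last 3 of these and apart from the other controls.

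Without subcutaneous control 17, 12 of 21 members tested passed, 11 higher and 1 lower, and 34.5% of all genes passed in that fit. The higher ones included Mgst3 (1.92 ± 0.41, adjusted p = 0.0175), Gsta3 (1.44 ± 0.30, 0.0173), Gsta4 (1.18 ± 0.29, 0.0227), Gstt1 (1.08 ± 0.22, 0.0165) and Gstm2 (0.99 ± 0.19, 0.0151), and the lower one was Gstp3 (-1.64 ± 0.33, 0.0157). Control 17 also stood apart in marker genes. The mean of 6 B cell and lymph node markers ran from 5.02 to 10.88 in swim arrays, against 5.28 to 11.67 in control arrays, and control 17 was the lowest control. The adipocyte mean of control 17 was 12.55, the highest of the controls, which ran down to 10.97. Their part in the results was not tested.

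Swim array 22 of the same tissue carried the kidney markers described above, and with them the members that are high in kidney. It had 12.16 for Ugt2b37, 12.93 for Ugt2b38, 11.70 for Sult1d1, 11.31 for Ugt3a1 and 10.15 for Sult1c2, where the other 7 subcutaneous arrays had at most 6.21, 6.18, 4.93, 4.87 and 4.95 of the same genes. The differences of Ugt2b37 (1.71 ± 1.35) and Ugt2b38 (2.03 ± 1.53) in this tissue rest on that array. Without it 0 members passed, as with it, and the count was also 0 without swim 23 and without swim 22 and 23 together. Without control 17 and swim 22 together, 14 of 20 members passed, and 38.1% of all genes.

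In brain 0 of 16 members passed, against 0.482% of all genes (0.43% higher and 0.0516% lower), and 2 members had an unadjusted p under 0.05. Sult4a1 had 10.64, 10.47, 10.52 and 10.29 in swim brains, against 10.78, 10.70, 10.79 and 10.64 in control brains (-0.25 ± 0.08, adjusted p = 0.197). Mgst3 (10359861) had 8.55, 8.49, 8.47 and 8.51, against 8.65, 8.67, 8.70 and 8.58 in control brains (-0.14 ± 0.05, adjusted p = 0.222). Sult2b1, a cholesterol sulfotransferase, and Gstt2 had differences of -0.43 ± 0.21 and -0.22 ± 0.11 (adjusted p = 0.358 and 0.36).

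**Figure D5:**
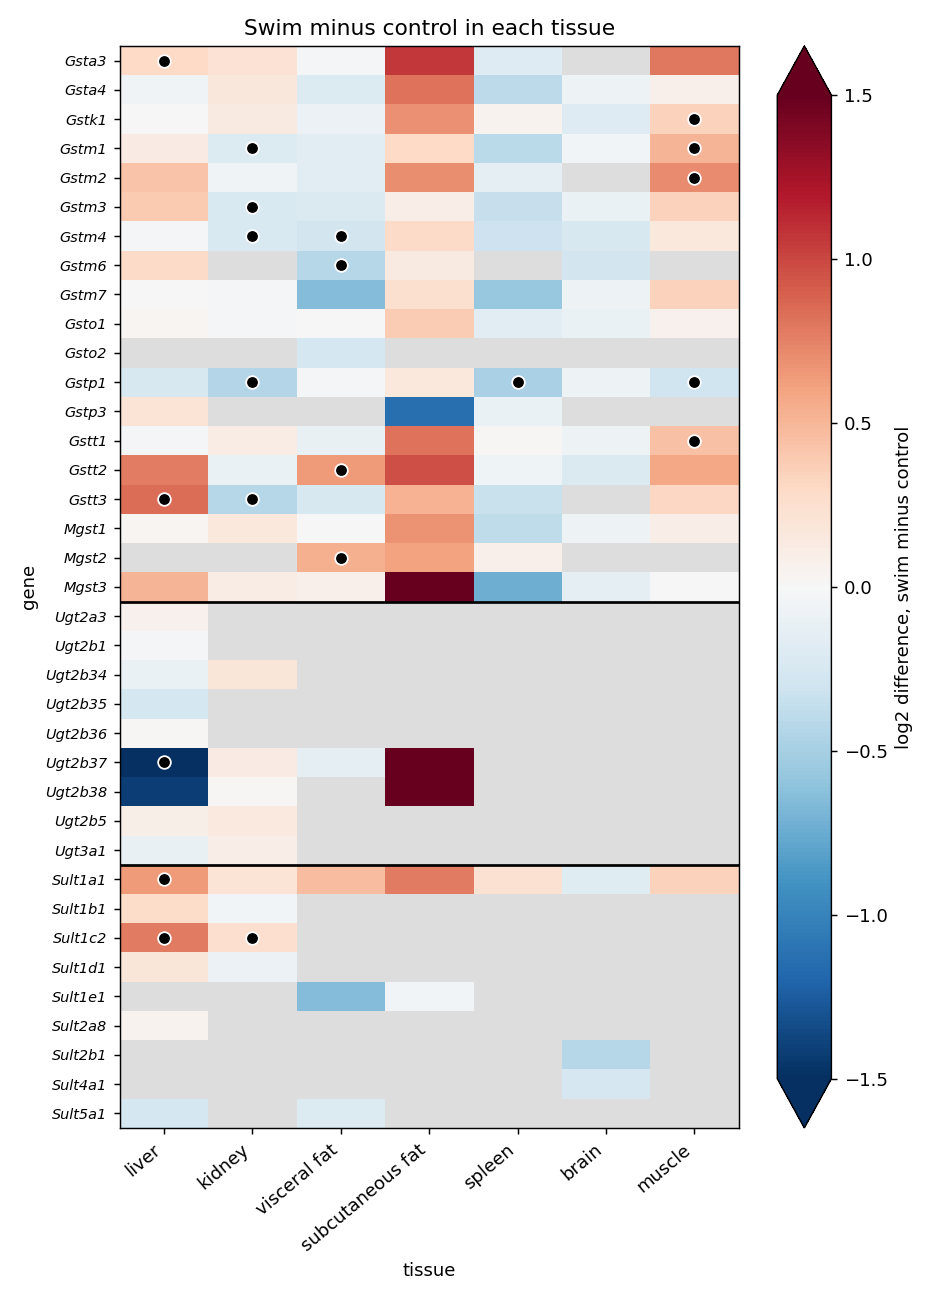
Swim minus control difference of each member in each tissue, in log2 units by colour (red higher in swim mice, blue lower, scale ends at 1.5), with black points where the adjusted p was under 0.05 and grey where the gene was too dim to be tested. Of the 21 points, 11 are higher and 10 lower, and rows of Gstt3 and Gstm1 hold points of both signs. Gstm3 in liver is a different probe set from that in the other tissues.

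Over the 7 tissues, 150 tests of members gave 21 calls, 11 higher and 10 lower, in 15 genes. A share of all genes pooled over the tissues was not computed. By tissue that share ran from 0% in subcutaneous fat to 24.4% in kidney. Gstt3 rose in liver and fell in kidney, and Gstm1 rose in muscle and fell in kidney. Gstm4 fell in kidney and in visceral fat, and Sult1c2 rose in liver and kidney. An F test over all tissues called 10 of 37 members, against 35.8% of all genes. It assumes equal spread in all tissues, which these data do not have, and no use is made of it.

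The genes that feed and surround these enzymes were counted from lists of known members. The share of all genes that passed was 4% in liver, 24.4% in kidney, 23.4% in visceral fat and 14% in spleen. It was 11.4% in muscle, 0.482% in brain and 0% in subcutaneous fat. The counts of each list below are to be read beside these shares, and no list was tested as a set. They are those of the main fit. The limits given above for the members, from scaling and from single arrays, are not given for these lists. Of 23 genes of glutathione synthesis and recycling tested in liver, 1 rose and 1 fell. Glrx, a glutaredoxin, rose by 0.42 ± 0.07 and Cbs, which starts the route from homocysteine to cysteine, fell (-0.39 ± 0.07). In kidney 1 of 23 rose and 7 fell, among them Ggct (-0.63 ± 0.08), which breaks down gamma-glutamyl peptides, and Pgd (-0.42 ± 0.07), an NADPH source. Visceral fat had 1 of 24 higher and 9 lower, Gss (-0.60 ± 0.11), the glutathione synthetase, among them. Spleen had 0 higher and 6 lower of 20, with Gpx3 (-0.41 ± 0.08) and Gpx4 (-0.35 ± 0.08), both glutathione peroxidases. Muscle had 1 higher and 2 lower of 24, brain 0 and 1 of 23 (Chac1, which degrades glutathione, -0.52 ± 0.07), and subcutaneous fat 0 of 25.

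Among 16 genes of UDP-glucuronate and PAPS supply tested in liver, 1 rose. It was Ugp2, which makes UDP-glucose, with 11.26 in swim and 10.77 in control livers (0.49 ± 0.07, adjusted p = 0.0149). In kidney 3 of 18 fell and 0 rose, led by Gusb, the lysosomal beta-glucuronidase that splits glucuronides (-0.59 ± 0.09), with the sulfite oxidase Suox (-0.24 ± 0.05) and the PAPS transporter Slc35b2 (-0.25 ± 0.07). Spleen had 2 of 14 higher and visceral fat 1 of 14. The other 3 tissues had 0 called, of 16 in subcutaneous fat, 15 in brain and 14 in muscle.

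Transporters that carry conjugates and organic anions had 1 of 17 higher in liver, the efflux pump Abcb1a (0.69 ± 0.10, adjusted p = 0.0149). In kidney 1 of 18 rose, again Abcb1a (0.29 ± 0.07, overlapping), and 4 fell, among them the organic anion transporters Slc22a7 (-0.65 ± 0.14) and Slc22a6 (-0.26 ± 0.07). In visceral fat Abcg2 (0.96 ± 0.11) and Abcc5 (0.71 ± 0.09) rose and Slco2b1 fell (-0.57 ± 0.12), of 9 tested. Of the other tissues, spleen had 1 higher and 2 lower of 10, muscle 1 higher of 9, and subcutaneous fat and brain 0 of 12 and 0 of 10.

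Xenobiotic receptors and regulators had 0 of 20 higher and 1 lower in liver, the oestrogen receptor Esr1 (-0.54 ± 0.12, adjusted p = 0.0444). In kidney 1 of 19 rose (Ppara, 0.31 ± 0.05) and 3 fell, among them Mafk (-0.47 ± 0.05), a small partner protein of NRF2. Nfe2l2, the gene of NRF2 itself, rose in muscle (0.35 ± 0.08, adjusted p = 0.0305), the only 1 of 16 called there. Visceral fat had 2 of 15 higher, spleen 1 higher and 1 lower of 13, and subcutaneous fat and brain 0 of 16 and 0 of 13.

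Of 13 other NRF2 targets tested in each of liver, kidney and visceral fat, liver had 1 higher and 1 lower, kidney 2 higher and 6 lower, and visceral fat 0 higher and 4 lower. In liver Cyp2a5 rose (0.60 ± 0.11) and Osgin1 fell (-1.13 ± 0.23). Osgin1 also fell in visceral fat (-0.81 ± 0.16) and spleen (-0.86 ± 0.18). In spleen 5 of 10 fell, Hmox1 (-0.82 ± 0.19), the haem oxygenase, among them. In muscle 1 of 12 rose, the epoxide hydrolase Ephx1 (0.74 ± 0.08), and 2 fell, the peroxiredoxin Prdx1 (-0.40 ± 0.06) and the sulfiredoxin Srxn1 (-0.69 ± 0.13). Subcutaneous fat had 0 called of 13 and brain 0 of 10.

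Other conjugating and related enzymes had 2 of 19 higher and 1 lower in liver. Inmt (0.70 ± 0.12) and As3mt (0.37 ± 0.06) rose and Nnmt (-0.53 ± 0.07) fell, all of them methyltransferases. In kidney 2 of 20 rose and 4 fell, and those that fell include 3 genes of the eicosanoid pathway, Ltc4s (-0.54 ± 0.10), Alox5ap (-0.45 ± 0.09) and Ptges (-0.33 ± 0.08). Visceral fat had 1 higher and 2 lower of 15, muscle 2 higher of 13 with Inmt (0.67 ± 0.14) again among them, and subcutaneous fat, spleen and brain 0 of 16, 0 of 11 and 0 of 13.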

How the data were processed

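RNA of 7 mouse tissues was labelled as cRNA and read on Affymetrix Mouse Gene 1.1 ST arrays, per the labels' protocols. The deposited table holds linear intensity values of 25917 probe sets on 54 arrays, summarised with PLIER per the submitters' processing notes, which also name limma. Their versions and background settings are not given in the sources used here. Any shift that PLIER leaves between arrays stays in the values.

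Values were taken as log2(signal + 16) of the deposited intensities and quantile normalized within each tissue (over all 54 arrays for levels at rest). The dimmest 40% of probe sets of a tissue were left out, and each gene was read by its brightest probe set (21086 probe sets had 1 symbol, 1867 several and 2964 none). Swim and control arrays were compared in each tissue with limma 3.58.1 (lmFit and eBayes, two-sided, R 4.3.3, statmod 1.5.0), with Benjamini-Hochberg adjustment over all genes and a threshold of 0.05. Every adjusted p in the text is from limma. Values after ± are SE beside a difference and SD beside a mean. The liver and kidney effects were compared in 1 fit of 14 group means, and rest levels in 27 control arrays over 21 pairs of tissues. The procedures were tested on simulated data, where the F test over 7 tissues was unreliable under unequal spread. False calls made up 13% of calls for the liver and kidney difference, 27.8% with weights by group and 11.5% with the 15 arrays alone. Within single tissues they made up 3.29% to 8.64%. The liver and kidney difference recovered 15% of changes of 0.5 log2 units. In subcutaneous fat 1% of changes of 0.5 log2 units and 31% of those of 1 log2 unit were recovered. Figures were drawn with matplotlib 3.10.9 in Python 3.11.15.

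Members that passed are named with the value in every array, and up to 4 of smallest p where fewer passed. Genes of other lists are named where they passed, up to 4 per list and tissue. The members, the lists and the motifs were chosen with earlier results of these data known. Alternatives covered scaling, filter, pseudocount, probe set choice, array weights and each array left out in turn.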

Additional observations from a re-analysis of the deposited data

Results flagged for a closer look

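In 67 groups of 4 arrays that were looked at for the members named in each tissue, 9 had an array far from the other 3, judged by its gap to the nearest as a share of the group's range. Chance flags about 1 in 20 such groups where the groups are unrelated. Subcutaneous fat swim array 22 accounts for 7 of the 9, so the flags are not independent and are not set against that rate. There the share was 0.974 for Sult1c2 (level 10.15), 0.965 for Sult1d1 (11.70), 0.962 for Ugt3a1 (11.31), 0.944 for Ugt2b37 (12.16), 0.892 for Ugt2b38 (12.93), 0.891 for Gstt2 (9.62) and 0.87 for Ugt2b34 (8.41). All 7 were measured in kidney at rest, and this is the array with the kidney tubule markers. Of these genes, Sult1c2, Sult1d1, Ugt3a1 and Ugt2b34 were too dim to be tested in subcutaneous fat.

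Kidney swim array 14 was low for Gstm4, at 8.47 with a share of 0.841. Muscle control array 41 was low for Gstk1, at 10.76 with a share of 0.912. The swimming effect on Gstt3 differed between liver and kidney by 1.2562 log2 units, the one member past the threshold in that test.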

How the results depend on the processing

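No paired analysis was possible because the labels do not say which mouse each array came from. No called value changed sign under any alternative run. Counts of members that passed changed as follows. With the values as deposited they were 0 in kidney, 2 in visceral fat, 13 in spleen and 1 in muscle, 0 for the liver and kidney difference, and 4 for the F test over 7 tissues. With arrays centred on their medians they were 17 in visceral fat, 2 in spleen and 3 in muscle. These scalings moved the median of all genes, to -0.23 in muscle, -0.20 in brain, -0.10 in visceral fat and 0.11 in kidney as deposited, and to -0.11 in muscle and 0.11 in subcutaneous fat with centred arrays. With no filter on dim probe sets the counts were 0 in spleen and 2 in muscle. With array weights they were 14 in subcutaneous fat (49.5% of all genes passed), 0 in spleen, 5 in brain (26.9%) and 8 in muscle (24.3%), and with weights by group 4 for the liver and kidney difference. In 1 fit of all 54 arrays they were 3 in liver, 1 in kidney, 14 in subcutaneous fat (57.4% of all genes passed) and 3 in muscle. The liver and kidney difference gave 0 with quantile normalization over all 54 arrays and 5 with the 15 arrays alone. Without subcutaneous control 17 and swim 22, chosen after seeing the data, 14 passed. The cause of these changes was not tested.

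Leaving out 1 array at a time gave 3 to 6 members in liver, 5 to 7 in kidney, 1 to 6 in visceral fat, 0 to 12 in subcutaneous fat, 0 to 2 in spleen, 0 in brain and 0 to 7 in muscle. The share of all genes that passed moved too, in liver for example 1.21% without control 49 and 4.71% without control 52. The liver and kidney difference gave 1 to 3, the most without liver control 52. Liver fell to 3 without control 49 or 50 or swim 53, 54 or 55. Visceral fat fell to 1 without control 4 and to 2 without swim 7. Spleen fell to 0 without any control or swim 31 and had 2 without swim 30. Muscle fell to 0 without swim 46, to 2 without control 41, 42 or 43 or swim 47, and to 3 without control 44. In liver, Ugt2b37 and Gstt3 passed under all 18 alternatives. All 37 genes kept their highest tissue at rest under all 5 other settings, but with arrays centred on their medians 35 of 37 kept the sign of liver against kidney. The number of arrays, and signal over background for dim genes, limit these values.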
